A study of Mus musculus with 24 samples.

Results

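The tissue described here is the tibialis anterior, a fast muscle at the front of the shin, of 4 control mice at 6 months of age. The 12 arrays labelled as control were used, of 24 arrays in the series, and they held 3 hybridisations for each of the 4 control animals out of 8 animals in all. The genotype was Myf6 cre/+; Hira flox/+ on a mixed C57BL6/J;129S1/SvImJ background, so these animals are controls and not wild type. Cre recombinase was expressed from the Myf6 locus, which is active in muscle fibres, and 1 copy of Hira was floxed, so by genotype the fibres kept 1 intact copy. HIRA is a chaperone that loads histone H3.3 onto DNA independently of replication, and the series asked how its loss in fibres changes muscle transcripts. The knockout arrays enter no comparison here. The labels number the control animals, and they are called animals 1 to 4 below in the order of those numbers.

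Skeletal muscle fibres turn calcium release into force by sliding actin and myosin filaments past each other, and troponin and tropomyosin on the actin filament gate each contraction. Fast glycolytic fibres, which make up most of the mouse tibialis anterior, carry fast isoforms of the troponins and of the calcium pump and renew ATP largely from creatine phosphate and glycolysis. Around the fibres lie capillaries, fibroblasts, macrophages, nerve endings, satellite cells (the muscle stem cells) and tendon, and whole-muscle RNA holds all of them. Muscle is also a target of glucocorticoids, of the circadian clock and of mechanical load, each of which acts through sets of inducible genes.

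Each level below is the log2 of the deposited probe intensity, with values under 38.8 set to 38.8, averaged over the 3 hybridisations of an animal, and means are given ± SD over the 4 animals. Of 17742 genes, 14523 were brighter than an intensity of 125 in every control animal and 2077 in none; 125 is the highest 5th percentile of any array, and genes at or under it are called dim. The median gene lay at 9.99, or an intensity of 1014. Probes differ in their response, so a rank orders probe intensities and not transcript numbers: a second row for myoglobin (Mb) lay between 12.78 and 13.22, and the row used here between 18.44 and 18.77. The array maxima ran from 501536 to 761817, and the brightest probes came close to them, so their values may not be linear in the amount of RNA.

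The ranking at the top was alike in the 4 animals. In all, 116 genes were among the 100 brightest of at least 1 animal, and 85 of them were in the top 100 of all 4. Members of the contractile lists made up 22 of the 100 brightest genes by mean level, members of the metabolic lists 31, and members of the non-fibre lists 2. The non-fibre pair was the matrix gene Dcn and Car3, which is on the adipocyte list but is also abundant in fibres. The first place by mean level went to Vdac1, the voltage-dependent anion channel of the outer mitochondrial membrane, at 18.96, 19.25, 19.02 and 19.05 in animals 1 to 4. Ndrg2, a stress-responsive gene abundant in muscle, followed at 18.99 ± 0.17. The glycolytic enzymes Pgam2 (18.90 ± 0.24), Tpi1 (18.71 ± 0.04), Pkm (18.68 ± 0.07) and Pfkm (18.62 ± 0.15) took 4 of the next 6 places. The fast troponin I gene Tnni2 (18.65 ± 0.30) and the muscle carbonic anhydrase Car3 (18.64 ± 0.10) lay among them. Myoglobin, the Z-disc cap of titin Tcap (18.58 ± 0.21), the fast troponin T gene Tnnt3 (18.56 ± 0.20) and the muscle creatine kinase Ckm (18.55 ± 0.10) completed the 12 brightest. Each gap between neighbours in this order was smaller than the SD between animals of the brighter gene, so neighbours are not resolved from each other.

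**Figure D1:**
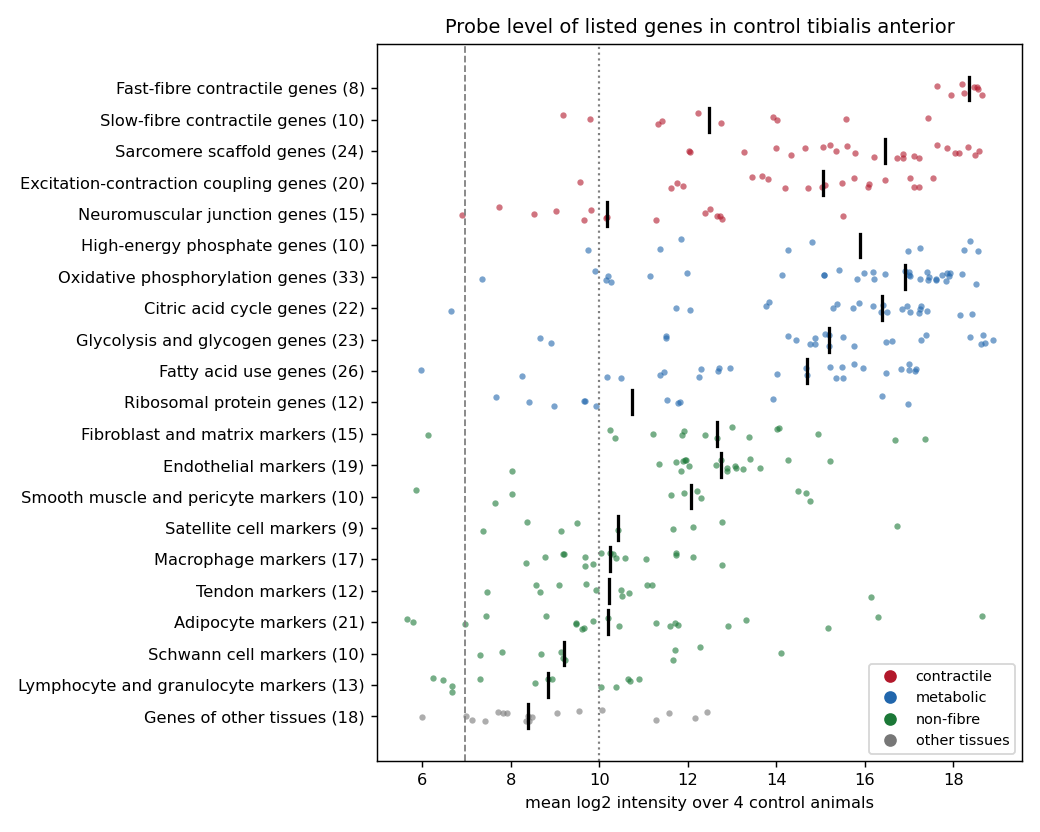
Mean log2 probe intensity over the 4 control animals (x axis) of each measured gene in 21 lists, with the number measured in brackets. Each point is 1 gene and each black bar the list median; the dashed line marks the dim level (6.96) and the dotted line the median of all genes (9.99), and the fast-fibre genes stand at the bright end with a median of 18.37.

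The defining markers of skeletal fibre stood at the top of the scale, as the tissue label states. The 9 measured fibre identity markers of 14 had a median level of 18.48 and ranged from 17.63 to 18.65, above 99.9% of genes at the median. All 8 measured fast-fibre contractile genes lay in the same window. The fast calcium pump Atp2a1 lay at 18.53 ± 0.16, the calcium buffer parvalbumin (Pvalb) at 18.48 ± 0.14, and calsequestrin 1 (Casq1), which stores calcium in the sarcoplasmic reticulum, at 18.26 ± 0.17. The fast troponin C gene Tnnc2 lay at 18.21 ± 0.13, tropomyosin 1 (Tpm1) at 17.95 ± 0.14, and the fast Z-disc actinin Actn3 at 17.63 ± 0.16. The myosin genes on the lists were not analysed here.

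Genes of slow fibres were spread over a wide range of levels. The 10 measured slow-fibre genes had a median of 12.49 and ran from 9.17 to 17.43. The slow troponins lay at 12.75 ± 0.08 (Tnnc1), 12.22 ± 0.02 (Tnni1) and 11.42 ± 0.18 (Tnnt1). The slow calcium pump Atp2a2 lay at 11.33 ± 0.26, and its inhibitors sarcolipin (Sln) and phospholamban (Pln) at 9.78 ± 0.25 and 9.17 ± 0.27. The upper end of the list was held by Actn2 (17.43 ± 0.39) and the muscle LIM protein Csrp3 (15.57 ± 1.38), Z-disc genes that fast fibres also express.

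The scaffold of the sarcomere was bright as a group, with a median of 16.47 over 24 measured genes. Titin (Ttn), the giant spring of the sarcomere, lay at 18.48 ± 0.11, skeletal actin (Acta1) at 18.34 ± 0.17, and nebulin (Neb), which lines the thin filament, at 17.86 ± 0.23. Genes of excitation-contraction coupling had a median of 15.06 over 20 genes. Among them sarcalumenin (Srl), a calcium-binding protein of the reticulum, lay at 17.54 ± 0.09, triadin (Trdn), which anchors calsequestrin to the release channel, at 17.02 ± 0.18, and the voltage sensor Cacna1s at 16.10 ± 0.27. Genes of the neuromuscular junction, which few fibre nuclei transcribe, had a median of 10.18 over 15 genes. The adult acetylcholine receptor subunit Chrne lay at 12.73 ± 0.10, and the fetal subunit Chrng at 10.39 ± 0.29.

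Metabolic genes formed the second bright block. The median was 16.91 over 33 genes of oxidative phosphorylation, 16.39 over 22 of the citric acid cycle, 15.89 over 10 of high-energy phosphate transfer, 15.20 over 23 of glycolysis and glycogen, and 14.69 over 26 of fatty acid use. Cox5a, a subunit of cytochrome oxidase, lay at 18.52 ± 0.18, Mdh2, the mitochondrial malate dehydrogenase, at 18.42 ± 0.09, and Slc25a4, which exchanges ATP and ADP across the inner membrane, at 18.39 ± 0.09. The mitochondrial creatine kinase Ckmt2 lay at 18.25 ± 0.06. Hexokinase 2 (Hk2), the first enzyme of glycolysis in muscle, lay at 17.39 ± 0.21, and the medium-chain acyl-CoA dehydrogenase Acadm at 17.15 ± 0.12. Proteasome genes had a median of 15.27 over 23 genes. The 12 measured ribosomal protein genes spanned 7.66 to 16.98, and none of them passed the test described below (limma, 2 of 12 at an unadjusted p under 0.05; 0 with an ordinary F test).

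Non-fibre markers lay lower, but most were above the dim level. So were most genes of other tissues, of which 1 of 18 was dim in all 4 animals. A level above dim thus does not by itself show expression. In whole muscle, fewer cells of a type and less RNA per cell cannot be told apart. The median level was 12.74 over 19 endothelial markers, 12.66 over 15 fibroblast and matrix markers and 12.06 over 10 smooth muscle and pericyte markers. The brightest members of these 3 lists were the small matrix proteoglycan decorin (Dcn, 17.35 ± 0.30) and gelsolin (Gsn, 16.69 ± 0.14), which fibres also express. The endothelial secreted factor Egfl7 lay at 15.22 ± 0.19, the lipoprotein lipase anchor Gpihbp1 at 14.27 ± 0.27 and smooth muscle actin (Acta2) at 14.76 ± 0.15, although a second row for Acta2 lay between 10.33 and 11.15.

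Scarcer cell types were near the median gene. Medians were 10.42 over 9 satellite cell markers, 10.25 over 17 macrophage markers, 10.21 over 12 tendon markers, 10.20 over 21 adipocyte markers, 9.20 over 10 Schwann cell markers and 8.85 over 13 lymphocyte and granulocyte markers. Pax7, the defining transcription factor of satellite cells, lay at 8.35 ± 0.12. In the lymphocyte and granulocyte list 4 of 13 members were dim in all 4 animals, and in the macrophage list 0 of 17 were. Genes of other tissues had a median of 8.40 over 18 genes. Within that list the epidermal keratins Krt14 (12.44 ± 0.11) and Krt5 (12.17 ± 0.15) were the brightest, and the liver gene Alb lay at 10.05 ± 0.11. Hira itself lay at 8.85, 9.11, 8.92 and 8.99 in animals 1 to 4, a range that did not pass the test (limma F, adjusted p = 0.370).

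The next question was which genes differ between the control animals. Each gene was tested with a moderated F test with the animal as a factor, in which the spread between hybridisations of 1 animal is the error. A call thus says that 4 RNA samples differed by more than repeated hybridisation did, and says nothing of the population of mice; animal, dissection, extraction and array run cannot be told apart. At an adjusted p under 0.05, 3363 of 17742 genes, or 19%, differed between animals, and 6113 had an unadjusted p under 0.05. With the added demand that the highest and lowest animal means differ by at least 2-fold, 332 genes, or 1.87%, remained. In 73 of the 332 the lowest animal was at or under the dim level, and 7 of the 332 were dim in all 4 animals. The 2-fold range of these genes thus includes values near background. In all 332 the hybridisations of the highest animal lay above every hybridisation of the lowest. The test and the 2-fold rule favour such genes, so this is no separate support for the calls.

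These counts changed with each animal left out. The count of 3363 became 1397 without animal 1, 1558 without animal 2, 2720 without animal 3 and 1495 without animal 4, and the count of 332 became 225, 208, 241 and 212. Without the arrays of highest background, 1 each from animals 3 and 4, they were 1386 and 284. The number of hybridisations mattered more. With 2 of the 3 hybridisations of every animal, 358, 209 and 79 genes passed without hybridisations 1, 2 and 3, and 285, 186 and 79 did so at 2-fold. The genes at an unadjusted p under 0.05 then numbered 4208, 5411 and 2612, against 6113. Of 81 genes named in the text that passed, 49, 44 and 29 still did.

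Most genes varied little. The median range between the highest and lowest animal was 0.42 on the log2 scale, or 1.34-fold, and it was 0.31 after quantile normalization. The median SD was 0.19 between animal means and 0.18 between hybridisations of an animal, but an animal mean also carries hybridisation error, and net of it the median SD between animals was 0.13. By that net measure 66.2% of genes had more variance between hybridisations than between animals. Arrays of 1 animal correlated at 0.986 to 0.995 over genes and arrays of different animals at 0.976 to 0.993.

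The main axis of difference between animals moved with array background. The first principal component held 63.6% of the variance between animal means and set animals 1 and 2 (-0.26 and -0.69) against animals 3 and 4 (0.44 and 0.51). The median deviation of the 4436 dimmest genes was -0.05, -0.38, 0.15 and 0.28 in animals 1 to 4, and that of the 4436 brightest was 0.07, 0.13, -0.11 and -0.08. The label numbers of animals 1 and 2 also lie apart from those of animals 3 and 4. The part of array background in the calls was not tested. For this reason median deviations after quantile normalization are also given for the glucocorticoid-responsive and macrophage lists, and for animal 2 in the fast-fibre list. Deviations of the other lists are given without that normalization.

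**Figure D2:**
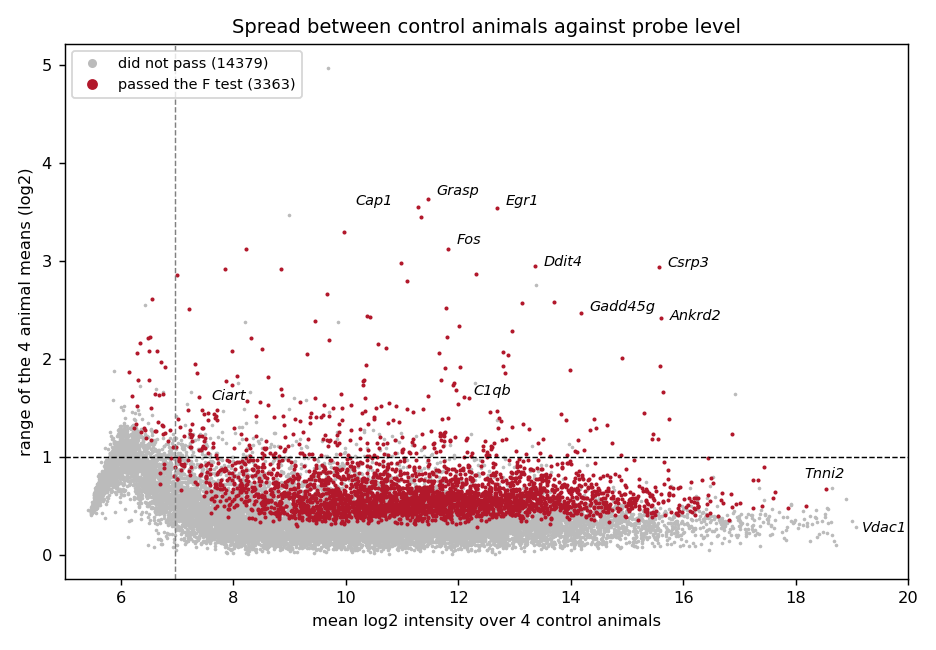
Range of the 4 animal means (y axis, log2) against the mean log2 intensity (x axis) for 17742 genes, with the 3363 that passed the F test in red. The dashed horizontal line marks a 2-fold range and the dashed vertical line the dim level. Grasp, Cap1 and Egr1 have the widest ranges among called genes. At the bright end Vdac1 (0.29) and Tnni2 (0.69) lie under the 2-fold line.

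Calls were fewest among dim genes and fewer at the very bright end than just below it. Of the 4436 dimmest genes 3.63% passed, of the 4436 brightest 27.5%, and of the 100 brightest 10, against 19% of all genes. Probes near the array maximum may show compressed differences, and the part of this in the low count was not tested. None of the 8 fast-fibre genes did (limma F; 3 of 8 at an unadjusted p under 0.05, 0 with an ordinary F test and 1 with an intensity trend and robust variances). The widest range in that list was that of Tnni2, at 18.22, 18.91, 18.74 and 18.74 (adjusted p = 0.098). Animal 2 was highest in all 8 genes, with a median deviation of 0.20 that fell to 0.02 after quantile normalization. Away from the brightest end, the 8 genes of smallest SD above the median level were Vwf, Olfr352, Ebf1, Pcgf1, Mrnip, Gatd1, Scgb3a1 and Rab34. Vwf, the endothelial clotting factor, lay between 11.88 and 11.89 in the 4 animals, closer together than its hybridisation SD of 0.16, so the order among such genes is not resolved.

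The widest ranges belonged to genes of many kinds. Among called genes with a name that is not a clone or predicted symbol, the 25 of widest range included 3 from the list of immediate early genes (Egr1, Fos and Gadd45g), 3 from that of glucocorticoid-responsive genes (Ddit4, Arrdc2 and Mt2) and 2 Z-disc or I-band genes (Csrp3 and Ankrd2). The 25 ranges ran from 2.42 to 3.63. In each of the 25 the hybridisations of the highest and lowest animals did not overlap, as in all 332 genes called at 2-fold.

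**Figure D3:**
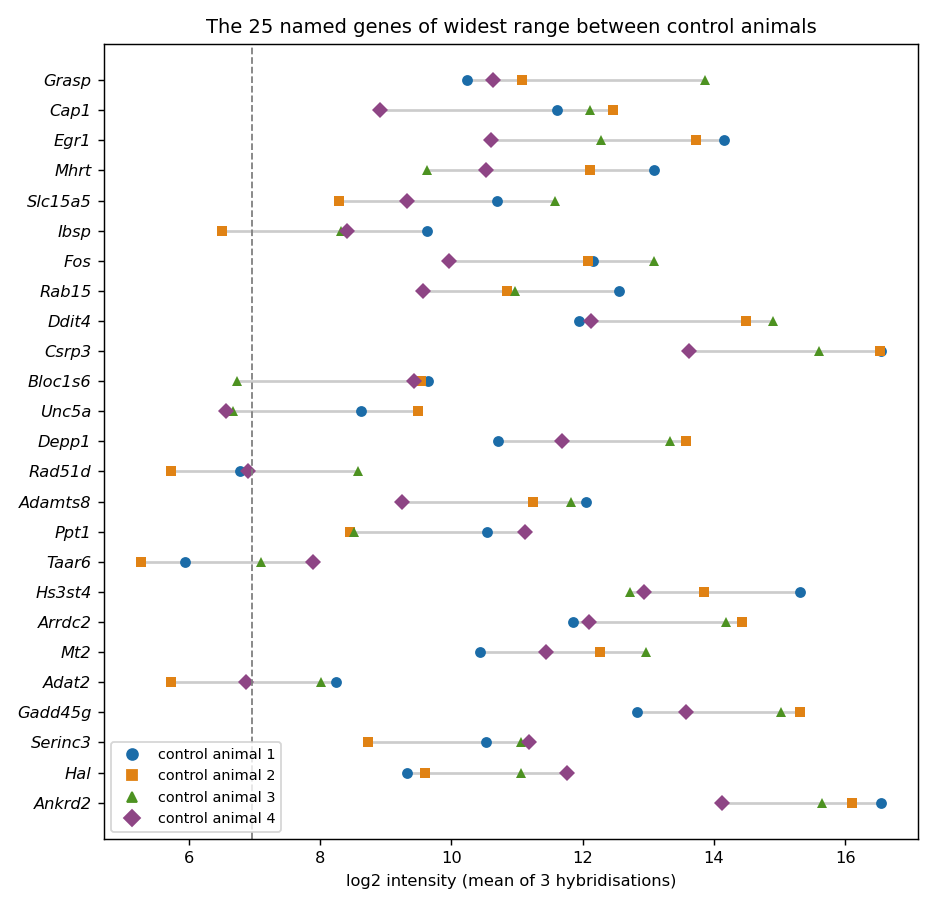
Log2 intensity (x axis) of the 25 named genes of widest range, each symbol being the mean of 3 hybridisations of 1 control animal. Animal 4 is lowest for Cap1, Egr1, Fos, Csrp3 and Ankrd2, while animals 2 and 3 are highest for Ddit4, Depp1, Arrdc2, Mt2 and Gadd45g; the dashed line marks the dim level of 6.96.

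Several of the widest ranges came from 1 animal. Grasp, a scaffold protein of membrane trafficking, had the widest range, at 10.24, 11.08, 13.87 and 10.64 in animals 1 to 4, a 12.4-fold difference (adjusted p = 1.5e-07). Animal 3 stood apart, and without it the range was 0.84. Cap1, which recycles actin monomers, lay at 11.60, 12.47, 12.11 and 8.92, an 11.7-fold range (adjusted p = 8.1e-07) that was 0.87 without animal 4. Bloc1s6, a subunit of a complex that forms lysosome-related organelles, lay at 9.65, 9.54, 6.73 and 9.44, and its level in animal 3 was dim, so the difference was at least 6.44-fold. Without animal 3 its range was 0.21 and it did not pass the test. Adamts8, a secreted metalloprotease, lay at 12.05, 11.24, 11.83 and 9.25, and a second row gave 12.13, 11.22, 11.70 and 9.26. It was thus low in animal 4 by both rows, and the range without animal 4 was 0.81. Serinc3 was low in animal 2 alone (10.52, 8.74, 11.06 and 11.18), and without animal 2 it did not pass the test.

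Other genes divided the animals in other ways. Ppt1, the lysosomal thioesterase palmitoyl-protein thioesterase, split the animals into pairs, at 10.54 and 11.13 in animals 1 and 4 and 8.46 and 8.52 in animals 2 and 3 (6.34-fold, adjusted p = 8.1e-07). The peptide transporter family gene Slc15a5 lay at 10.70, 8.29, 11.58 and 9.32, and Rab15, a small GTPase of endosomes, at 12.55, 10.85, 10.98 and 9.57. Hal, which breaks down histidine, lay at 9.32, 9.60, 11.06 and 11.75, so that animals 3 and 4 were above animals 1 and 2. Hs3st4, a heparan sulfate sulfotransferase, lay at 15.31, 13.85, 12.72 and 12.94, and without animal 1 it did not pass the test. The matrix gene Ibsp (at least 6.38-fold), the netrin receptor gene Unc5a (at least 5.78-fold), the repair gene Rad51d (at least 3.08-fold), the tRNA deaminase gene Adat2 (at least 2.44-fold) and the receptor gene Taar6 (at least 1.91-fold) had at least 1 animal at or under the dim level, and Rad51d did not pass without animal 3. Mhrt, a non-coding RNA of the cardiac myosin heavy chain locus, lay at 13.08, 12.12, 9.63 and 10.53, but its hybridisations of 1 animal differed widely (SD 1.02; adjusted p = 0.026), and it did not pass without animal 1, without animal 3 or without the arrays of highest background.

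The share of called members differed widely between lists. It was 70.0% or more for glucocorticoid-responsive, immediate early, tendon, clock, macrophage and slow-fibre genes, against 19% of all genes. It was under 19% for glycolysis, oxidative phosphorylation, excitation-contraction coupling and fast-fibre genes. With 2 hybridisations of every animal these counts were far lower, as was the share of all genes (2.02%, 1.18% and 0.445% without hybridisations 1, 2 and 3). The glucocorticoid-responsive count of 21 became 12, 8 and 4, the immediate early count of 20 became 10, 8 and 5, and the macrophage count of 12 became 8, 6 and 2. The clock count of 13 became 6, 2 and 1, the tendon count of 9 became 3, 3 and 1, the sarcomere scaffold count of 10 became 4, 3 and 3, and the slow-fibre count of 7 became 1, 2 and 1. The other lists had 4 calls or fewer each. The lists share some members. Each count below, where no other fit is named, is read against 19% for the test and 1.87% for the 2-fold rule. Of all genes 7.87%, 8.78%, 15.3% and 8.43% passed without animals 1 to 4, and counts without an animal are read against these. After quantile normalization 24.9% of all genes passed. Among all 3363 called genes, animals 1 to 4 were highest in 1645, 1130, 242 and 346. They were lowest in 336, 391, 1883 and 753. Animals 1 and 2 were the highest pair in 2179 of the 3363, and animals 2 and 3 in 187.

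**Figure D4:**
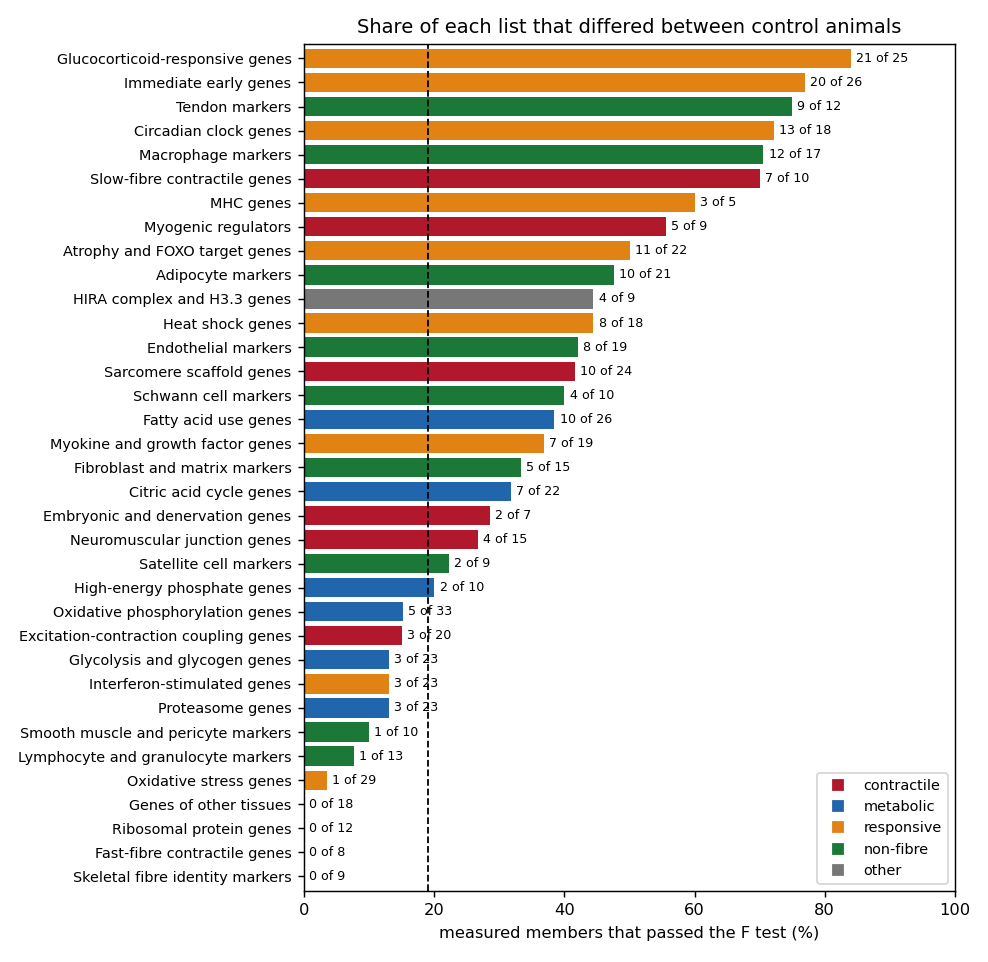
Share of the measured members of each list that passed the F test between control animals (x axis, %), with the count beside each bar and colours for the class of list. The dashed line is the share of all genes, 19%; glucocorticoid-responsive genes (21 of 25) and immediate early genes (20 of 26) have the highest shares, and the fast-fibre, fibre identity, ribosomal protein and other-tissue lists are at 0.

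Glucocorticoid-responsive genes differed most often. The test passed 21 of 25 measured members, and 12 of 25 reached 2-fold. Animals 2 and 3 were the highest pair in 12 of the 21 called genes, and the median deviations were -0.21, 0.27, 0.22 and -0.22 in animals 1 to 4 (-0.22, 0.16, 0.17 and -0.15 after quantile normalization). Ddit4, an inhibitor of mTORC1 signalling induced by glucocorticoids and stress, lay at 11.95, 14.49, 14.90 and 12.12, a 7.72-fold range (limma F, adjusted p = 5.3e-07). Animals 2 and 3 were far above animals 1 and 4. Arrdc2, an arrestin-domain gene, had the same split at 11.85, 14.43, 14.18 and 12.10, as did Depp1, a FOXO target that was not on the list, at 10.70, 13.57, 13.32 and 11.68. Nfkbia, the inhibitor of NF-kappaB, lay at 14.19, 15.34, 15.15 and 14.25. Tsc22d3, which encodes the glucocorticoid-induced leucine zipper, lay at 15.69, 16.31, 15.98 and 15.62 (adjusted p = 0.017), a smaller range of 0.69 that did not pass without animal 1, 2 or 4. The called count was 14 without animal 2, 15 without animal 4, 17 without animal 1 and 20 without animal 3, and the 2-fold count was 7 without animal 2.

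The metallothionein gene Mt2, which encodes a small protein that binds zinc and copper, followed the same animals. It lay at 10.44, 12.26, 12.96 and 11.44 in animals 1 to 4, a 5.75-fold range (adjusted p = 7.9e-06), so animal 3 was highest and animal 1 lowest. Its promoter is shown because metallothioneins are the textbook case of metal-driven transcription. The RefSeq sequence, 250 bases before to 50 after the start on GRCm38.p6, chr8:94172368-94172667, plus strand, is printed with matches to the core of the metal response element (TGCACNC or TGCGCNC, either strand) in capitals.
Mt2: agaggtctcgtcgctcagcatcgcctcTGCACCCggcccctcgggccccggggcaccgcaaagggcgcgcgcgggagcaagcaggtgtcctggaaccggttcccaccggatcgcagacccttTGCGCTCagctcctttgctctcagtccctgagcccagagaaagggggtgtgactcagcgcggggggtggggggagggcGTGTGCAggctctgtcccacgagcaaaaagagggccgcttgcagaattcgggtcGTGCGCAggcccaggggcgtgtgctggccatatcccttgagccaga
This window held 4 matches, and 25.7% of 32851 mouse promoter windows of the same length held at least 1. A match describes the letters and is no evidence of binding in these animals.

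Pdk4, the kinase that shuts glucose carbon out of the citric acid cycle and is induced by fasting as well as glucocorticoids, did not follow the Ddit4 pattern. It lay at 16.39, 15.32, 16.26 and 15.00 (adjusted p = 5.8e-05), high in animals 1 and 3. The lipoprotein lipase inhibitor Angptl4 lay at 10.92, 9.73, 11.13 and 10.22, and the mitochondrial carrier Ucp3 at 12.90, 12.34, 13.43 and 12.13. All 3 genes, the members of the fatty acid list that reached 2-fold, were thus higher in animals 1 and 3 than in animals 2 and 4. In that list 10 of 26 genes passed, while the acyl-CoA dehydrogenase Acadm did not (adjusted p = 0.626). Among atrophy and FOXO target genes 11 of 22 passed. The ubiquitin ligase Fbxo32 (atrogin-1) lay at 15.19, 15.13, 14.65 and 15.22 (adjusted p = 0.014) and did not pass without animal 3 or without the arrays of highest background, and the ligase Trim63 (MuRF1) lay at 16.12, 16.40, 16.32 and 16.38 (adjusted p = 0.281).

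Immediate early genes were low in animal 4. The test passed 20 of 26 members, animal 4 was lowest in 15 of these 20, and it was highest in none. Egr1, a transcription factor induced within minutes of stimulation, lay at 14.15, 13.73, 12.28 and 10.61 in animals 1 to 4, an 11.7-fold range (limma F, adjusted p = 1.5e-07). The hybridisations of animal 4 lay between 10.56 and 10.66 and those of animal 1 between 14.10 and 14.25. Fos, its companion in the early response, lay at 12.16, 12.08, 13.08 and 9.96, an 8.71-fold range. Nr4a1, an orphan nuclear receptor, was highest in animal 3 at 15.06, 15.54, 16.18 and 15.00. Gadd45g, a growth arrest gene, was high in animals 2 and 3 at 12.83, 15.31, 15.02 and 13.57. The members thus did not all order the animals alike. The list's median deviations were -0.12, 0.17, 0.29 and -0.36, and 11 of 26 genes reached 2-fold. Without animal 4 the counts were 13 and 4.

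Egr2, a relative of Egr1, was dimmer, at 8.08, 8.79, 8.60 and 7.67 (adjusted p = 0.003). Its promoter is shown because it was 1 of 2 genes, of the 22 on the list with a promoter window, that held a CArG box, the site of serum response factor. The RefSeq window on GRCm38.p6 is chr10:67537619-67537918, plus strand, 1 of several annotated starts, with the CArG box in capitals.
Egr2: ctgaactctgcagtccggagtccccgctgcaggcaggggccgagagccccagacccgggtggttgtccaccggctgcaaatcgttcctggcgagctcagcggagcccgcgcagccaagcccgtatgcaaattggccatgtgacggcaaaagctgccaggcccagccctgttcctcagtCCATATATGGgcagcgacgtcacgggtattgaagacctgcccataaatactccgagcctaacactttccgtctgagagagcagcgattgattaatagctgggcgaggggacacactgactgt
A CArG box occurred in 1.63% of all promoter windows, and was searched with its A/T-rich core of any order. That share counts windows, while the 2 of 22 counts genes, some with several windows, so they are not compared.

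**Figure D5:**
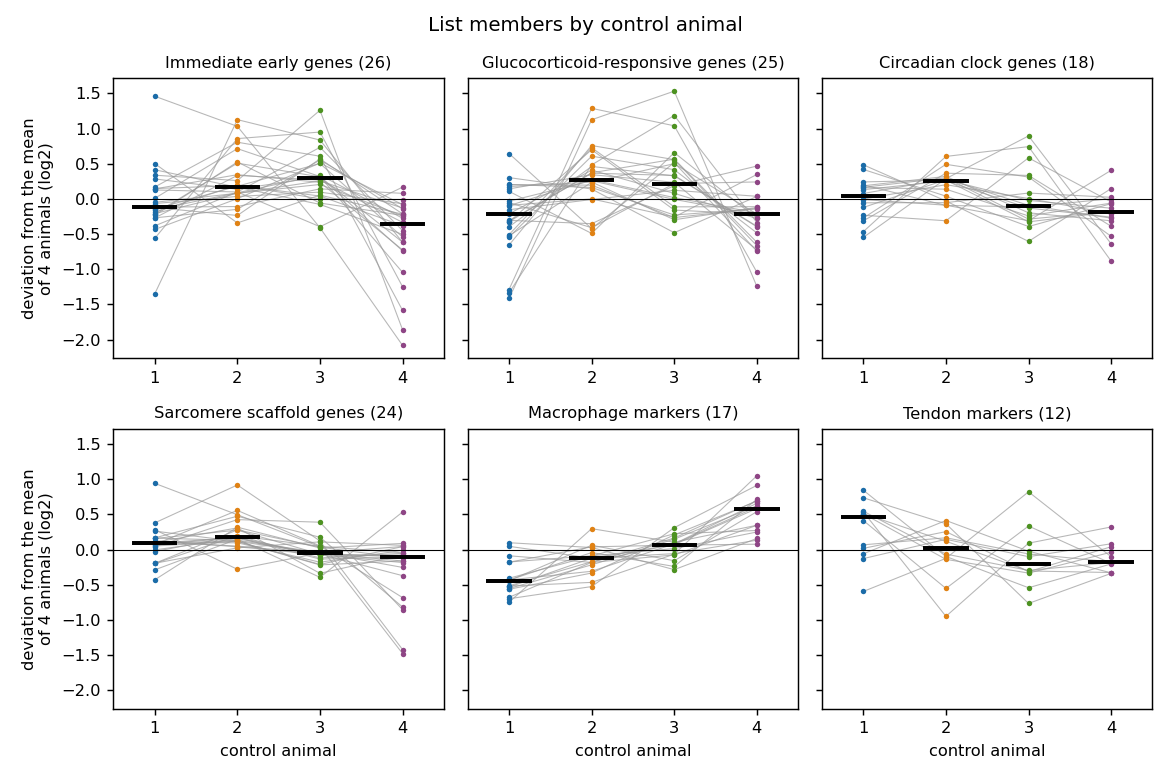
Deviation of each list member from its own mean over the 4 control animals (y axis, log2) by animal (x axis), for 6 lists with the number of members in brackets. Grey lines join the 4 values of 1 gene and black bars are list medians; macrophage markers have their highest median in animal 4 (0.58), immediate early genes their lowest there (-0.36), and tendon markers their highest in animal 1 (0.46).

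Clock genes also differed. The circadian clock is a feedback loop in which CLOCK and ARNTL (BMAL1) activate the Per and Cry genes and the outputs Dbp and Ciart through E-boxes, and its transcripts change with the time of day. The test passed 13 of 18 members, 4 of them at 2-fold. Per2 lay at 10.99, 12.06, 12.20 and 10.57 (limma F, adjusted p = 7.9e-06), Dbp at 14.61, 15.38, 15.20 and 14.35, and Ciart at 8.07, 8.90, 9.51 and 7.98. All 3 were higher in animals 2 and 3 than in animals 1 and 4. Most called members did not have this split. Of the 13, animals 1 and 2 were the highest pair in 6, and animals 2 and 3 in 4. Arntl was lowest in animal 3, at 13.08, 12.56, 11.99 and 12.74 (adjusted p = 0.00025). No source used here gives the hour at which each animal was dissected. The row used for Per3 lay between 14.00 and 14.14 and did not pass, while a second row lay between 10.88 and 11.77. The called count was 8 without animal 4 and 9 without animal 2.

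The Ciart promoter is shown because the gene encodes a repressor within the clock and its window held 3 E-boxes (CACGTG, which reads the same on both strands), in capitals. The RefSeq window on GRCm38.p6 is chr3:95882179-95882478, minus strand.
Ciart: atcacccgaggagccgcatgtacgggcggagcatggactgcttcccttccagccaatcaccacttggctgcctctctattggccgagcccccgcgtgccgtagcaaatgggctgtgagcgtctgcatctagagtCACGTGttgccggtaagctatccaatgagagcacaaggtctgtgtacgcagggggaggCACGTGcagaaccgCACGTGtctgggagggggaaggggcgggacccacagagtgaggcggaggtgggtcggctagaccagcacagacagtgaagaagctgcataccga
An E-box occurred in 7.15% of all windows. By gene, at least 1 window held one in 4 of 15 clock, 7 of 22 immediate early and 5 of 22 glucocorticoid-responsive genes. The first share counts windows and the others count genes, some with several windows, so they are not compared.

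Several genes of the sarcomere scaffold were low in animal 4. In the scaffold list 10 of 24 genes passed and 5 reached 2-fold, namely Ankrd2, Ankrd1, Lmod2, Xirp1 and Flnc. Ankrd2, a stretch-responsive ankyrin repeat protein of the I-band, lay at 16.55, 16.10, 15.65 and 14.13 (limma F, adjusted p = 2.8e-06), and its relative Ankrd1 at 12.40, 12.94, 12.14 and 10.59. Csrp3, the muscle LIM protein, lay at 16.55, 16.52, 15.60 and 13.61, a 7.66-fold range (adjusted p = 1.8e-06). Filamin C (Flnc), which links the Z-disc to the membrane, lay at 16.94, 17.43, 16.92 and 16.19, the actin-binding repair protein Xirp1 at 14.37, 14.76, 14.73 and 13.48, and leiomodin 2 (Lmod2), which sets thin filament length, at 13.43, 13.73, 13.44 and 12.44. In all 6 genes animal 4 was the lowest. Without animal 4, 2 of the 24 scaffold genes passed, against 8.43% of all genes, and none reached 2-fold. Flnc, Xirp1 and Lmod2 did not pass in that fit, and the range of Csrp3 was 0.94. The small heat shock protein gene Hspb7 lay at 16.37, 16.44, 15.02 and 14.51, so here animals 3 and 4 were both low; 8 of 18 heat shock genes passed, and Hspb7 was the 1 that reached 2-fold.

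Slow-fibre genes passed in 7 of 10 cases, and Csrp3 was the 1 that reached 2-fold. The median range of the list was 0.57, against 0.42 over all genes. Actn2 lay at 17.79, 17.58, 17.46 and 16.89 (adjusted p = 0.0027; range 0.33 without animal 4, which did not pass). Calsequestrin 2 (Casq2), the cardiac and slow-fibre form, lay at 14.25, 14.29, 13.58 and 13.58. The slow troponin genes Tnni1 and Tnnc1 did not pass, with ranges of 0.05 and 0.17. The slow troponin T gene Tnnt1 did, at 11.50, 11.59, 11.17 and 11.45 (adjusted p = 0.047), but not without animal 1, 2, 3 or 4, without the arrays of highest background or after cyclic loess. Without animal 4 the called count was 3. At the neuromuscular junction 4 of 15 genes passed, and the acetylcholine receptor subunit Chrnb1 had the widest range, at 13.41, 12.99, 12.45 and 12.24 (adjusted p = 0.00062).

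Genes of energy metabolism other than fatty acid use had narrow ranges between animals, although the share called in the citric acid cycle was above 19%. The test passed 3 of 23 genes of glycolysis and glycogen, 2 of 10 of high-energy phosphate, 5 of 33 of oxidative phosphorylation and 7 of 22 of the citric acid cycle, and none of these reached 2-fold. The median ranges of these lists ran from 0.23 to 0.36. That of the brightest 1% of genes was 0.35, and that of all genes 0.42, so narrow ranges are not particular to these lists. The glucose transporter Slc2a1, which is not the insulin-regulated one, was high in animal 2 at 11.30, 11.96, 11.37 and 11.41 (adjusted p = 0.0097), and it did not pass without animal 2. Pdhb, a subunit of pyruvate dehydrogenase, was low in animal 1 at 15.23, 16.09, 15.82 and 15.80, and it did not pass without animal 1 or 2. Under quantile normalization 9 genes of oxidative phosphorylation passed, when 24.9% of all genes did. Of the 29 oxidative stress genes 1 passed, the secreted peroxidase Gpx3 (adjusted p = 0.043), and 6 passed after quantile normalization, when Gpx3 did not. Gpx3 also did not pass without animal 1, 2 or 4 or without the arrays of highest background.

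Macrophage markers were highest in animal 4. The test passed 12 of 17 measured markers and 9 reached 2-fold; animal 4 was highest in all 12 that passed and animal 1 lowest in 10 of them. The complement genes C1qa, C1qb and C1qc, which tissue macrophages make, lay at 12.08, 12.58, 12.93 and 13.46; at 11.41, 11.58, 12.42 and 13.02; and at 11.18, 11.41, 11.95 and 12.43. The macrophage surface protein gene Adgre1 (F4/80) lay at 8.67, 8.72, 9.12 and 10.24 (limma F, adjusted p = 3.2e-05), and Csf1r, the receptor for the macrophage growth factor, at 11.20, 11.61, 11.81 and 12.32. The order of animals was thus alike for these 5 genes. The median deviations of the list were -0.44, -0.12, 0.07 and 0.58, and after quantile normalization -0.47, -0.20, 0.06 and 0.65. Without animal 4, 6 of 17 passed and 2 reached 2-fold, and Adgre1 and Csf1r did not pass. Ptprc (CD45), carried by all white blood cells, lay at 9.73, 9.56, 9.63 and 9.82 and did not pass (adjusted p = 0.178).

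Other immune genes gave a partial match. Cd74, the invariant chain of MHC class II, lay at 11.88, 12.22, 12.85 and 13.34 (adjusted p = 0.016), and it did not pass without animal 1, without animal 4 or without the arrays of highest background. The mast cell protease Cpa3 lay at 10.04, 10.57, 11.38 and 11.56, the single call among 13 lymphocyte and granulocyte markers, and did not pass without animal 1. Beta-2 microglobulin (B2m), the light chain of MHC class I, was highest in animal 3, at 15.26, 15.64, 16.21 and 15.55, and did not pass without animal 3. Among interferon-stimulated genes 3 of 23 passed, which is under the background share.

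Tendon markers were highest in animal 1. The test passed 9 of 12 and 4 reached 2-fold. Animal 1 was highest in 7 of the 9, against 1645 of all 3363 called genes. Kera (keratocan), a proteoglycan of tendon and cornea, lay at 10.66, 10.29, 9.16 and 9.59 (limma F, adjusted p = 5.2e-05), and Tnmd (tenomodulin), a defining tendon gene, at 11.01, 10.62, 10.19 and 10.17. Col12a1, a collagen of tendon sheaths, lay at 9.93, 8.99, 8.55 and 8.88 and did not pass without animal 1. Not all members shared this order: Thbs4, which fibres also express, was highest in animal 2 at 16.08, 16.55, 16.11 and 15.80 (not past the test without animal 2 or 4, or without the arrays of highest background), and Angptl7 was highest in animal 3 at 9.10, 9.57, 10.52 and 9.60. Scx, the transcription factor that specifies tendon, lay at 10.57, 10.67, 10.45 and 10.33 and did not pass. Without animal 1 the counts were 6 and 2.

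Adipocyte markers did not order the animals alike. The test passed 10 of 21 and 4 reached 2-fold. Of the 10, animal 3 was highest in 5, animal 1 in 3 and animals 2 and 4 in 1 each, and animal 1 was lowest in 7. Cfd (adipsin) lay at 10.92, 11.28, 12.83 and 12.05, Cidec, a lipid droplet protein, at 8.74, 9.30, 10.34 and 9.46, Pck1, which feeds glycerol synthesis, at 9.05, 9.57, 10.58 and 9.27, and Adipoq (adiponectin) at 11.05, 11.37, 12.10 and 11.89. In all 4, the members that reached 2-fold, animal 3 was highest. Fabp4, which capillary endothelium also expresses, lay at 16.29, 16.55, 16.21 and 16.15 and did not pass (adjusted p = 0.110). Without animal 3 the 2-fold count was 1.

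Vascular, stromal and nerve markers moved less. Endothelial markers passed in 8 of 19 cases, none at 2-fold. Animal 1 was highest in 7 of the 8, against 1645 of all 3363 called genes. The tight junction gene Cldn5 lay at 14.01, 13.16, 13.11 and 13.31 (adjusted p = 0.0012), and without animal 1 it did not pass and the list held 2 calls. The test passed 1 of 10 smooth muscle and pericyte markers, the pericyte receptor Pdgfrb at 12.62, 12.53, 11.85 and 11.81, and 5 of 15 fibroblast and matrix markers. Schwann cell markers passed in 4 of 10 cases and animal 2 was highest in all 4. Myelin basic protein (Mbp) lay at 11.39, 12.21, 11.68 and 11.35 (limma F, adjusted p = 0.0011), and without animal 2 it did not pass. A second row lay at 8.77, 8.71, 8.95 and 8.99, so animal 2 was lowest there. With the rows of a gene averaged, Mbp did not pass. Satellite cell markers passed in 2 of 9 cases, and Pax7 did not pass (adjusted p = 0.576). Among genes of other tissues none of 18 passed (limma F; 3 of 18 at an unadjusted p under 0.05, 0 with an ordinary F test).

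Some extremes of the cell type markers fell in the same animals as extremes of other genes. Animal 4, low in Csrp3, Ankrd2, Fos and Egr1, was the animal of highest macrophage markers, and animal 1, with the highest tendon markers, was the lowest for most called macrophage markers. The part of cell makeup in these differences was not tested.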

How the data were processed

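RNA of the tibialis anterior of 4 control animals was hybridised 3 times each. The deposited table held linear probe intensities for 26423 rows, which the authors had scaled, since each array had the median 626.429; no source used here gives the scanner, the background correction or which dye was read (the labels name both Cy3 and Cy5). The 5th percentile of the control arrays ran from -2.35 to 125. The floor was 38.8, which is the 5th percentile over the whole deposited table; lower values were raised to it and log2 was taken. A probe annotation, which is old, gave 20377 rows 1 symbol, brought up to date with RefSeq (GRCm38.p6; 18213 matched a current symbol, 2126 a synonym and 38 neither). Of several rows for a gene the one with the highest mean over all 24 arrays, knockout arrays included, was kept, which left 17742 genes. With rows chosen on the control arrays alone, 3356 genes passed the test below, and 332 did so at 2-fold.

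The test between animals was the moderated F of limma 3.58.1 (R 4.3.3) with animal as factor on the 12 arrays, with Benjamini-Hochberg adjustment over all genes and a threshold of 0.05. The fit was tested on simulated data with known changes. Precision is limited by how many arrays there are. Where an animal was dim, a fold is given as at least the ratio to the dim level.

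Genes were named by rule: the 25 called genes of widest range, the 8 of smallest SD above the median level, the 12 brightest, up to 6 brightest and 2 widest called members of each list, and Hira. Lmod2, Xirp1, Flnc, Egr2, Ucp3, Pck1, Adipoq, Arntl, Tnnt1, Atp2a2, Sln, Pln, Tpm1, Actn3, Col12a1, Angptl7, Ptprc, Pax7, Top2b and genes given only by a second row were chosen after their values were seen. Members and lists were chosen with earlier results of these data known. Of 698 genes on 37 lists, 575 were measured.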

Additional observations from a re-analysis of the deposited data

Results flagged for a closer look

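Of 139 genes examined, 4 had 1 control animal far from the other 3 by Dixon's gap ratio. Chance would give this in about 1 in 20 genes drawn at random. The genes examined were chosen by level, range or list, or after their values were seen. The 4 are thus not compared with that rate, and chance is not excluded. The ratio of gap to range was 0.962 for Ndrg2 (animal 2 high, at 19.25; range 0.35, not past the F test), 0.832 for Slc2a1 (animal 2 high, at 11.96), 0.928 for Bloc1s6 (animal 3 low, at 6.73) and 0.837 for Fbxo32 (animal 3 low, at 14.65). The 3 genes other than Ndrg2 passed the F test between animals (limma).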

How the results depend on the processing

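The counts of genes that differed between control animals (3363, and 332 at 2-fold) stayed within 1.5 times under quantile normalization (4418 and 314), cyclic loess, 2 other treatments of low values, a filter on dim genes, 2 other choices of row, an ordinary F test and an intensity trend (3219 to 4418, and 262 to 347). A replicate block on the hybridisation number gave 3100 and 327; deviations of arrays with the same number correlated above 0.1 in 6 of 18 pairs, among them every pair of animals 3 and 4 (0.30 to 0.75), while those of animals 1 and 3 ran from -0.63 to -0.13, so the numbers do not pair the arrays of all 4 animals. Leaving out 1 hybridisation number gave 79 to 358 and 79 to 285, and leaving out animals 1, 2, 3 and 4 in turn gave 1397, 1558, 2720 and 1495, and 225, 208, 241 and 212 at 2-fold. Of the fits chosen after seeing the data, the one without the 2 arrays of highest background gave 1386 and 284, animals 1 and 2 alone 146 and 58, and animals 3 and 4 alone 113 and 74; these fits hold fewer samples. Signal over background limits dim genes: 161 of the 4436 dimmest genes passed, against 1221 of the 4436 brightest.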

Other observations

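Secreted factors of muscle had a median level of 9.93 and ran from 6.10 to 16.01. Vegfb lay at 16.01 ± 0.18 (SD, n = 4 animals), the angiogenic factor Vegfa at 15.94 ± 0.30 and myostatin (Mstn), which restrains muscle growth, at 13.43 ± 0.10. The test passed 7 of 19 genes of this list. Igf1, the muscle growth factor, lay at 10.38, 9.50, 9.78 and 10.07 in animals 1 to 4 (limma F, adjusted p = 0.00097), and a second row at 7.70, 7.30, 7.28 and 7.80 also had animal 2 below animals 1 and 4. Il15, a cytokine abundant in muscle, lay at 13.11, 13.38, 12.95 and 12.59 (adjusted p = 0.0026) and did not pass without animal 4.

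The partners of HIRA and the H3.3 genes were measured too. H3f3b, which encodes H3.3, lay at 14.51 ± 0.21, the HIRA partner Ubn1 at 12.90 ± 0.27 and the histone donor Asf1a at 11.97 ± 0.13. The test passed 4 of 9 genes of this list and none reached 2-fold. No call remained without animal 1, when 7.87% of all genes passed. The imprinted RNA H19 lay at 14.27, 14.18, 13.97 and 13.75 (adjusted p = 0.010), and it did not pass without animal 4 or without the arrays of highest background.

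The widest range of all genes, 4.97, was that of Top2b, a topoisomerase, at 7.86, 7.88, 10.16 and 12.83. It did not pass the test (limma F, adjusted p = 0.421), and its SD between hybridisations of an animal was 3.82.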
